A study of Saccharomyces cerevisiae with 34 samples.

Results

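Hac1-depleted yeast cells were compared with Hac1-retaining cells under the same ER stress, in mRNA and in ribosome footprints. The comparison was set by the library labels and used 8 of the 34 libraries of the series. Depleted cells carried TIR, a plant F-box protein that lets auxin direct tagged proteins to degradation, and received 500 µM auxin with 4 µM IP6 for 15 min before 5 mM dithiothreitol (DTT), which reduces disulfide bonds. Retained cells lacked TIR and received the same auxin, IP6 and DTT. For each side mRNA-seq and ribosome profiling, which sequences the stretches of mRNA that ribosomes cover (footprints), were done at 1 h and at 2 h. All cells were Saccharomyces cerevisiae of the SK1 background in rich medium (YEPD). The labels do not describe the degradation tag, and the series text says only that some cells were depleted for Hac1 and others were wild-type.

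Of the other libraries of this experiment, those with vehicle (DMSO and water) and DTT, from TIR and no-TIR cells at 1 h and 2 h, served as a check on the TIR strain without auxin. Those with auxin and no DTT, from TIR cells at 1 h and 2 h and no-TIR cells at 1 h, gave the level without stress. A separate experiment of 12 libraries compared a hac1 deletion strain with wild type (WT), untreated, with 5 mM DTT or with 2 µg/mL tunicamycin (Tm, which blocks N-glycosylation), with 1 library for each strain, treatment and molecule. For these 12 another label gives footprints also for the libraries titled as mRNA, and the titles and column names were followed.

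Unfolded protein in the lumen of the endoplasmic reticulum (ER) activates the kinase and nuclease Ire1, which removes an intron from HAC1 mRNA and so lets the Hac1 protein be made. Hac1 is a transcription factor that raises genes for ER chaperones, disulfide bond formation, glycosylation, protein disposal, membrane lipid synthesis and vesicle transport. By its title, the series also asks whether Hac1 drives long mRNA isoforms that are poorly decoded into protein, for which mRNA and footprints of a gene would part.

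Values are as deposited and are called RPKM (reads per kilobase of gene, scaled to a library total), a unit that the auxin table does not name. A change is a log2 difference of RPKM + 1, depleted minus retained, with its standard error from limma. A gene was called lower or higher, or is said to have changed, at an adjusted p under 0.05 over all genes tested. The 8 libraries held an estimated 10.82 to 36.55 M reads in genes. That exceeds the library totals of 3.379 to 11.42 M that the same estimate implies under RPKM. The unit, the total used for scaling and these depths are therefore uncertain. Whether the hours of a group were sampled from separate cultures is not labelled. P-values measure departures from an hour effect shared by all 11 libraries of a molecule, including those outside the comparison. That spread may be technical, and it also holds any change over the hour that differs between groups. In bulk samples, fewer cells with a transcript and less of it in each cell cannot be told apart.

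Messenger RNA of HAC1 (YFL031W), the targeted gene, stood at 24305 and 22574 RPKM in depleted cells, against 25555 and 28075 RPKM in retained cells. HAC1 footprints were 4544 and 4574 RPKM in depleted and 5804 and 5310.3 RPKM in retained cells. The values of depleted cells lay below those of retained cells in both molecules, but neither difference passed the test (−0.19 ± 0.13, limma adjusted p = 0.369, and −0.28 ± 0.12, adjusted p = 0.191). With auxin and no DTT, HAC1 footprints were 457 and 568 RPKM in TIR and 380.0 RPKM in no-TIR cells, so the stressed level was several-fold higher on both sides. RNA does not show the amount of Hac1 protein, and the depletion itself was not measured here. IRE1, the sensor upstream of HAC1, did not pass the test either (0.39 in mRNA, adjusted p = 0.193). Of 8 mating genes of either type and 5 strain marker genes 0 were called in mRNA by limma, with 0 and 2 at an unadjusted p under 0.05 and at most 1 called in each under any other setting. Among 3 strain marker genes tested in footprints ADE2 was called higher (adjusted p = 0.0459), and not without any 1 of the 4 libraries (adjusted p = 0.0863 to 0.283). The summed mRNA level of the strain markers was 1083 and 1371 RPKM in depleted and 915 and 1041 RPKM in retained cells, beside 852 and 1043 RPKM in TIR and 842 and 1092 RPKM in no-TIR cells with vehicle, and its part in the results was not tested. The summed level of the MATa genes was 35.5 and 40.0 RPKM in depleted against 50.2 and 34.7 RPKM in retained cells. LEU2 and HIS3 were listed at 0 in every one of these mRNA libraries.

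Depleted cells held less mRNA for ER chaperones, disulfide oxidases and sugar donor enzymes than retained cells, and more for some transporters of iron, phosphate and drugs. Of 5757 genes tested, 350 were called in mRNA (6.08%), 216 lower (3.75%) and 134 higher (2.33%) in depleted cells, around a median change of 0.02 over all genes. In footprints 513 of 5338 genes were called (9.61%), 309 lower (5.79%) and 204 higher (3.82%), around a median of 0.02. At an unadjusted p under 0.05 stood 23.0% of all genes in mRNA and 23.9% in footprints, against which the unadjusted counts of the lists below are to be read. By size, 85 of the mRNA-lower genes and 51 of the mRNA-higher genes changed at least 2-fold. Library values of the groups did not overlap in 215 of the 216 lower and 130 of the 134 higher genes, so lack of overlap adds little to a call. The 216 mRNA-lower genes had a median of −1.01 at 1 h and −0.76 at 2 h, and the 134 higher genes 1.04 and 0.71. Each kept its direction at both hours, but the genes were called on these same libraries, so this agreement was largely set by the selection.

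The number of calls depended on single libraries and on the shared hour term. In mRNA it was 136 without the depleted library of 1 h, 125 without the retained library of 1 h and 153 once the hour was taken out of the model. In footprints it was 204 and 227 without the depleted libraries of 1 h and 2 h, 126 and 193 without the retained libraries of 1 h and 2 h, and 201 without the hour. In mRNA 96 of the 350 genes were called whichever of the 4 libraries was left out, 73 lower and 23 higher, and in footprints 117 of 513, 86 lower and 31 higher. For named genes that lost a call with 1 library left out, the adjusted p is given without 1 or more of the libraries concerned, and some lost it without others too.

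Genes called in mRNA were mostly called in footprints too, while about as many footprint calls were shared as not. Of 5329 genes tested in both, 164 were called lower in both and 88 higher in both, while 1 gene, HNT1, was called in opposite directions. A further 76 were called in mRNA alone and 258 in footprints alone. The 252 genes called the same way were thus 76.6% of the 329 mRNA calls and 49.3% of the 511 footprint calls among them.

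**Figure D1:**
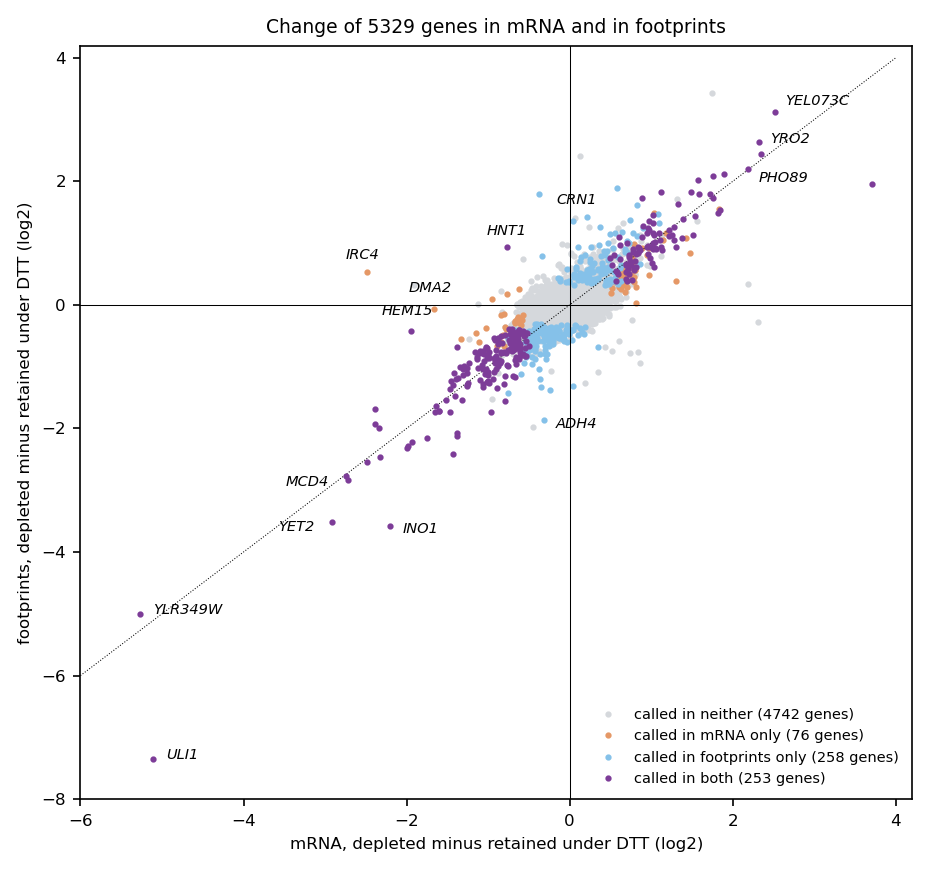
Change in ribosome footprints (y axis, log2) against change in mRNA (x axis, log2), depleted minus retained under DTT, for the 5329 genes tested in both molecules. Points are coloured by the calls of limma at adjusted p under 0.05 and the dotted line marks equal change, which the 253 genes called in both mostly follow, while IRC4, DMA2, HNT1, CRN1 and ADH4 lie away from it.

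Most ER chaperones of the Hsp70 system were lower in depleted cells. Of 9 ER chaperone genes tested, 6 were called lower in mRNA and 7 in footprints, none was higher, and the median change was −1.09 in mRNA and −0.90 in footprints. These 9 include CNE1 and ROT1, which lie outside the Hsp70 system and were not called in either molecule. KAR2 (YJL034W), the luminal Hsp70 that binds unfolded protein, had 4051 and 3595 RPKM of mRNA in depleted cells, against 14791 and 14385 RPKM in retained cells. Both depleted libraries lay far below both retained ones (−1.93 ± 0.12, limma adjusted p = 4.29e-06). Its footprints were 2972 and 2711 RPKM in depleted and 14244 and 12322 RPKM in retained cells (−2.22 ± 0.11, adjusted p = 3.37e-05). SIL1 (YOL031C), the nucleotide exchange factor of Kar2, had 303 and 279 RPKM of mRNA in depleted and 1776 and 1205 RPKM in retained cells (−2.33 ± 0.15, adjusted p = 4.29e-06). JEM1 (YJL073W), a J-domain partner of Kar2, had 131 and 123 RPKM of mRNA in depleted cells against 321 and 346 RPKM in retained cells (−1.39 ± 0.14, adjusted p = 0.000131). JEM1 footprints were 100.4 and 95.3 RPKM in depleted and 425 and 438 RPKM in retained cells (−2.13 ± 0.09, adjusted p = 1.85e-05), and footprints per mRNA were lower by a log2 difference of −0.74 (adjusted p = 0.0353, lost without 3 of the 4 library pairs at adjusted p up to 0.45, without the retained pair of 1 h). The J-domain proteins SCJ1 and ERJ5 and the second luminal exchange factor LHS1 were called at −1.24, −1.09 and −0.84 in mRNA. SEC63, the J-domain protein of the import channel, passed in footprints (−0.58, adjusted p = 0.0187) and not in mRNA (−0.46, adjusted p = 0.0686). All 6 mRNA calls were made whichever library was left out, and 5 of the 7 footprint calls, the others being ERJ5 and SEC63 (adjusted p = 0.0535 and 0.202 without the retained library of 1 h).

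**Figure D2:**
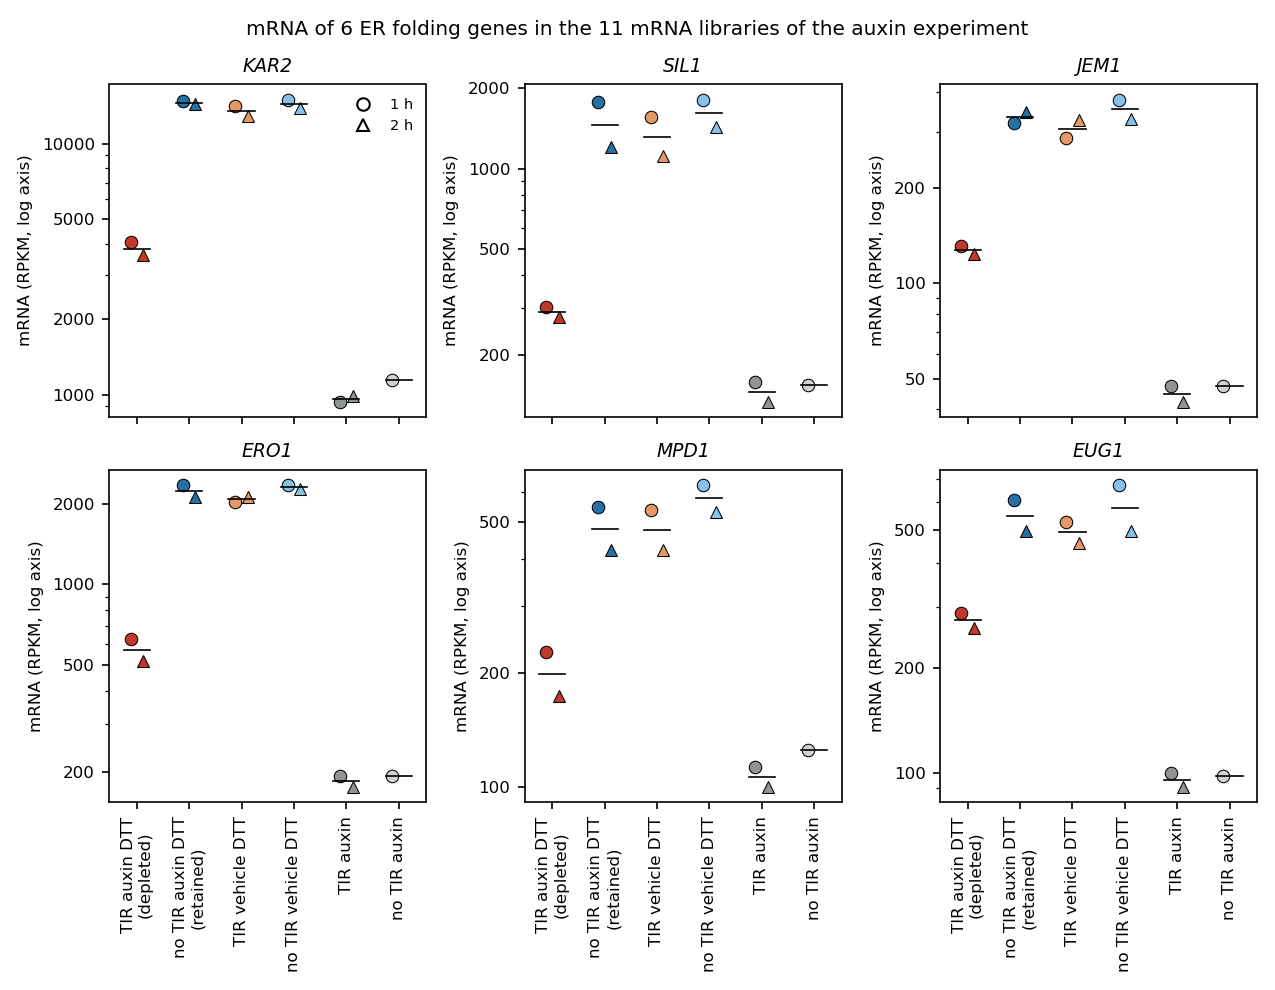
mRNA level (RPKM, log axis) of 6 ER folding genes in each of the 11 mRNA libraries of the auxin experiment, with circles for 1 h, triangles for 2 h and a line at the geometric mean of a group. In all 6 genes both depleted libraries sit below the 6 other libraries with DTT and above the 3 libraries without DTT.

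Most enzymes that form and shuffle disulfide bonds were lower too. Of 8 tested, 6 were called lower in mRNA and the same number in footprints, none was higher, and the medians were −0.91 and −0.95. ERO1 (YML130C), the oxidase that feeds oxidizing equivalents to protein disulfide isomerase, had 624 and 517 RPKM of mRNA in depleted and 2355 and 2128 RPKM in retained cells (−1.98 ± 0.14, limma adjusted p = 7.22e-06). Its footprints were 546 and 441 RPKM in depleted and 2420.2 and 2372 RPKM in retained cells (−2.29 ± 0.11, adjusted p = 2.87e-05), again with no overlap. The isomerases followed at smaller size, with PDI1 at −0.98 in mRNA and −1.27 in footprints, MPD1 at −1.26 and −1.30, EUG1 at −1.0 and −1.13, and MPD2 at −0.84 and −0.77. ERV2, a second ER oxidase, changed least of those called (−0.64 in mRNA, adjusted p = 0.0395). EPS1, a membrane-bound isomerase, did not pass in either molecule (0.34 in mRNA, adjusted p = 0.196, and −0.09 in footprints, adjusted p = 0.6). Leaving out 1 library kept 4 of the 6 calls in each molecule, while MPD2 and ERV2 did not pass without the retained library of 1 h (adjusted p = 0.0655 and 0.303 in mRNA, and 0.0602 and 0.19 in footprints). By the RefSeq annotation of assembly R64, EUG1 lies beside FPR2, an ER prolyl isomerase, which was lower too (−1.39 in mRNA). ERO1 lies beside YML131W, which was higher (1.03).

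In protein disposal and import the changes were confined to some members. Of 18 genes of ER-associated degradation, by which misfolded protein is returned to the cytosol, 3 were called lower in mRNA and 6 in footprints, with medians of −0.10 and −0.11. DER1 (YBR201W), of the export channel, had 309 and 371 RPKM of mRNA in depleted against 1126 and 744 RPKM in retained cells (−1.43 ± 0.19, limma adjusted p = 0.000973), and its homolog DFM1 changed by −0.93. HRD1, the ubiquitin ligase of the channel, was called at −0.67 in mRNA and −0.72 in footprints, and lost its mRNA call without the depleted library of 1 h (adjusted p = 0.0984) or the retained library of 1 h (adjusted p = 0.0651). Its partners USA1, HRD3 and YOS9 were called in footprints alone, at −0.76, −0.63 and −0.47. Without the retained library of 1 h HRD3 and YOS9 did not pass in footprints (adjusted p = 0.0524 and 0.279).

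Of 12 genes of the translocon and signal peptidase, which admit new proteins to the ER, 5 were called lower in mRNA and 6 in footprints, with medians of −0.47 and −0.42. These were subunits of the import channel, SEC66 (−0.91 ± 0.18 in mRNA), SEC62 (−0.83 ± 0.14), SEC72 (−0.70 ± 0.17), SSS1 and SBH1, with SEC61 in footprints alone (−0.60, adjusted p = 0.00671). None of the translocon calls was made in every set with 1 library left out. Without the depleted library of 1 h, 1 passed in mRNA and 2 in footprints. Without the retained library of 1 h, 0 of the 5 mRNA calls and 0 of the 6 footprint calls passed, and SEC62 had an adjusted p of 0.0626 in mRNA and 0.0602 in footprints. The signal recognition particle, which brings ribosomes to that channel, showed 0 calls by limma among 8 genes in either molecule, here and under every other setting, with medians of −0.16 and 0.00 and with 1 gene in mRNA and 0 in footprints at an unadjusted p under 0.05. The proteasome degrades the exported protein. Its 33 listed genes, subunits and their regulator RPN4, also showed 0 calls in either molecule by limma. Their medians were −0.12 and 0.05, with 3 and 2 genes at an unadjusted p under 0.05.

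Among glycosylation genes, most of those for sugar donors were lower in depleted cells. Of 7 genes that supply GDP-mannose and dolichol-linked mannose, 4 were called lower in mRNA, and of 6 tested in footprints 5 were called lower, with medians of −0.79 and −0.72. PMI40 (YER003C), the mannose-6-phosphate isomerase, had 558 and 388 RPKM of mRNA in depleted and 1302 and 1039 RPKM in retained cells (−1.32 ± 0.15, limma adjusted p = 0.000337). PSA1 (YDL055C), which makes GDP-mannose, had 4524 and 4901 RPKM in depleted and 12079 and 10499 RPKM in retained cells (−1.26 ± 0.13, adjusted p = 0.000173). SEC53, the phosphomannomutase between them, changed by −1.17. All 3 steps of this short pathway were therefore lower in mRNA. Among 6 protein O-mannosyltransferases, 3 were called lower in mRNA and 4 in footprints, led by PMT3 (−1.0 ± 0.12 in mRNA and −1.23 ± 0.08 in footprints). PMT2 and PMT1 were called at −0.69 and −0.55 in mRNA, and the mRNA call of PMT2 was lost without the depleted library of 2 h (adjusted p = 0.123) or the retained library of 2 h (adjusted p = 0.123), and that of PMT1 without any 1 of the 4 libraries (adjusted p = 0.119 to 0.146). PMT4 and PMT6 did not pass in either molecule (0.15 and 0.15 in mRNA). Of 17 genes that build and trim the lipid-linked oligosaccharide, 2 were called lower in mRNA and 6 in footprints, of which 1 passed in footprints without the retained library of 1 h and 2 to 4 without any other 1 library, led by the dolichol kinase SEC59 (−0.92 in mRNA). Of 9 oligosaccharyltransferase subunits, which move that glycan onto protein, 2 were called lower, OST2 (−0.74 in mRNA) and SWP1 (−0.50), and neither mRNA call passed without the depleted library of 1 h (adjusted p = 0.244 and 0.233) or without the retained library of 1 h (adjusted p = 0.293 and 0.212).

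In the synthesis of glycosylphosphatidylinositol (GPI) anchors, 1 gene stood far from the rest. MCD4 (YKL165C), an ER ethanolamine phosphate transferase that acts on the anchor, had 216 and 156 RPKM of mRNA in depleted and 1331 and 1105 RPKM in retained cells (−2.72 ± 0.13, limma adjusted p = 6.83e-07). MCD4 footprints were 262 and 206 RPKM in depleted and 1812 and 1524 RPKM in retained cells (−2.83 ± 0.14, adjusted p = 3.2e-05). The groups did not overlap in either molecule. Of the 26 genes of the pathway 2 were called in mRNA and 4 in footprints, and the medians were −0.09 and −0.10. The footprint count was 1 without the depleted library of 2 h or the retained library of 1 h. The second mRNA call was GWT1, an inositol acyltransferase (−0.69), which did not pass without the depleted library of 2 h (adjusted p = 0.0775) or the retained library of 1 h (adjusted p = 0.14).

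Some genes of vesicle transport were lower in depleted cells. Of 10 COPII coat genes, which form vesicles leaving the ER, 2 were called lower in mRNA and 7 in footprints, with medians of −0.35 and −0.50. SEC24, a cargo adaptor of that coat, had 386 and 362 RPKM of mRNA in depleted and 621 and 689.6 RPKM in retained cells (−0.81 ± 0.13, limma adjusted p = 0.00372). SEC16, the scaffold of exit sites, passed in footprints (−0.88, adjusted p = 0.0031) and not in mRNA (−0.29, adjusted p = 0.268). Of the 7 COPII footprint calls 2 passed without the depleted library of 1 h, 0 without the retained library of 1 h and 4 without the retained library of 2 h. Without the retained library of 1 h SEC16 and SEC24 footprints had an adjusted p of 0.0516 and 0.119. Among 7 genes of the COPI coat, which serves the return route, RET3 was the 1 mRNA call (−1.08 ± 0.17, or an adjusted p of 0.0652 and 0.0522 without the depleted or the retained library of 1 h), and 4 were called lower in footprints, or 1 whichever library was left out. Of 16 p24 and ERV cargo receptors, 5 were called lower in each molecule, with medians of −0.33 and −0.18. Without the depleted library of 1 h 2 of the mRNA calls passed and without the retained library of 1 h 3, and 2 of the footprint calls passed without the depleted library of 2 h or the retained library of 1 h. ERP2 had 1079.6 and 1055 RPKM of mRNA in depleted and 2939 and 2133 RPKM in retained cells (−1.23 ± 0.15, adjusted p = 0.000637), and ERV29, a receptor for soluble cargo, changed by −0.91.

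Lipid synthesis was called in few genes. INO1 (YJL153C), the rate-limiting enzyme of inositol synthesis, had 24.4 and 20.3 RPKM of mRNA in depleted and 127 and 88.7 RPKM in retained cells (−2.21 ± 0.18, limma adjusted p = 2.32e-05). INO1 footprints were 5.23 and 5.63 RPKM in depleted and 88.0 and 65.7 RPKM in retained cells (−3.58 ± 0.17, adjusted p = 3.09e-05), a wider gap than in mRNA. Of 19 genes of inositol and phospholipid synthesis 3 were called lower in mRNA and 2 in footprints, with medians of −0.03 and −0.06. The other mRNA calls were OPI3, a phospholipid methyltransferase (−0.84), and INO4, a subunit of the activator of these genes (−0.67). OPI3 did not pass without any 1 of the 4 libraries (adjusted p = 0.0665 to 0.139), and INO4 not without the depleted or the retained library of 1 h (adjusted p = 0.347 and 0.353). Of 23 ergosterol synthesis genes 0 were called in mRNA by limma, here and under every other setting, with 5 at an unadjusted p under 0.05, and 1 was called in footprints, with medians of 0.15 and 0.20. That gene was ERG7 (−0.40), which did not pass without any 1 of the 4 libraries (adjusted p = 0.0895 to 0.17).

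Several of the widest decreases lay outside these pathways. YLR349W, which the RefSeq table does not list, had 2.55 and 5.06 RPKM of mRNA in depleted and 168 and 187 RPKM in retained cells (−5.27 ± 0.32, limma adjusted p = 4.29e-06). ULI1 (YFR026C), of unknown function and known to be induced by ER stress, had 121 and 92.9 RPKM of mRNA in depleted and 3576 and 3802 RPKM in retained cells (−5.11 ± 0.18, adjusted p = 3.73e-08). Both genes were close to their level without DTT, which was 1.17 and 2.96 RPKM for YLR349W and 82.5 and 77.6 RPKM for ULI1 in TIR cells given auxin but no DTT. YET2 (YMR040W), a homolog of an ER membrane protein, had 482 and 566 RPKM of mRNA in depleted and 4945 and 3159 RPKM in retained cells (−2.92 ± 0.21, adjusted p = 1.16e-05). Its R64 neighbour SUB1, a transcription coactivator, was also lower (−1.05). DOG1 (YHR044C), a sugar phosphatase, had 459 and 421 RPKM in depleted and 3546 and 2440.1 RPKM in retained cells (−2.74 ± 0.17, adjusted p = 4.29e-06). Its near-identical neighbour DOG2 is listed at 0 in all of these libraries, so reads of the 2 genes may have been counted under 1 name. HOP1, a protein of meiotic chromosomes, was low in both groups and still apart (−2.60), while the other 10 meiotic genes tested were not called. PEX18, a receptor of peroxisomal import, changed by −2.39, KNH1, of cell wall glucan synthesis, by −2.38, and SPR28, a septin of sporulation, by −2.34. Among metabolic genes, the glycogen synthase GSY1 changed by −1.33 and the succinyl-CoA ligase subunit LSC2 by −1.0 in mRNA. Each was the 1 gene of its list called lower in mRNA, and both lists leaned higher. Of 16 trehalose and glycogen genes 2 were called higher (median 0.40), and of 11 TCA cycle genes 1 (median 0.49). At an unadjusted p under 0.05, 8 and 7 genes of these lists were higher. In footprints LSC2 was called lower too (−0.83), while 0 of 16 trehalose and glycogen genes were.

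**Figure D3:**
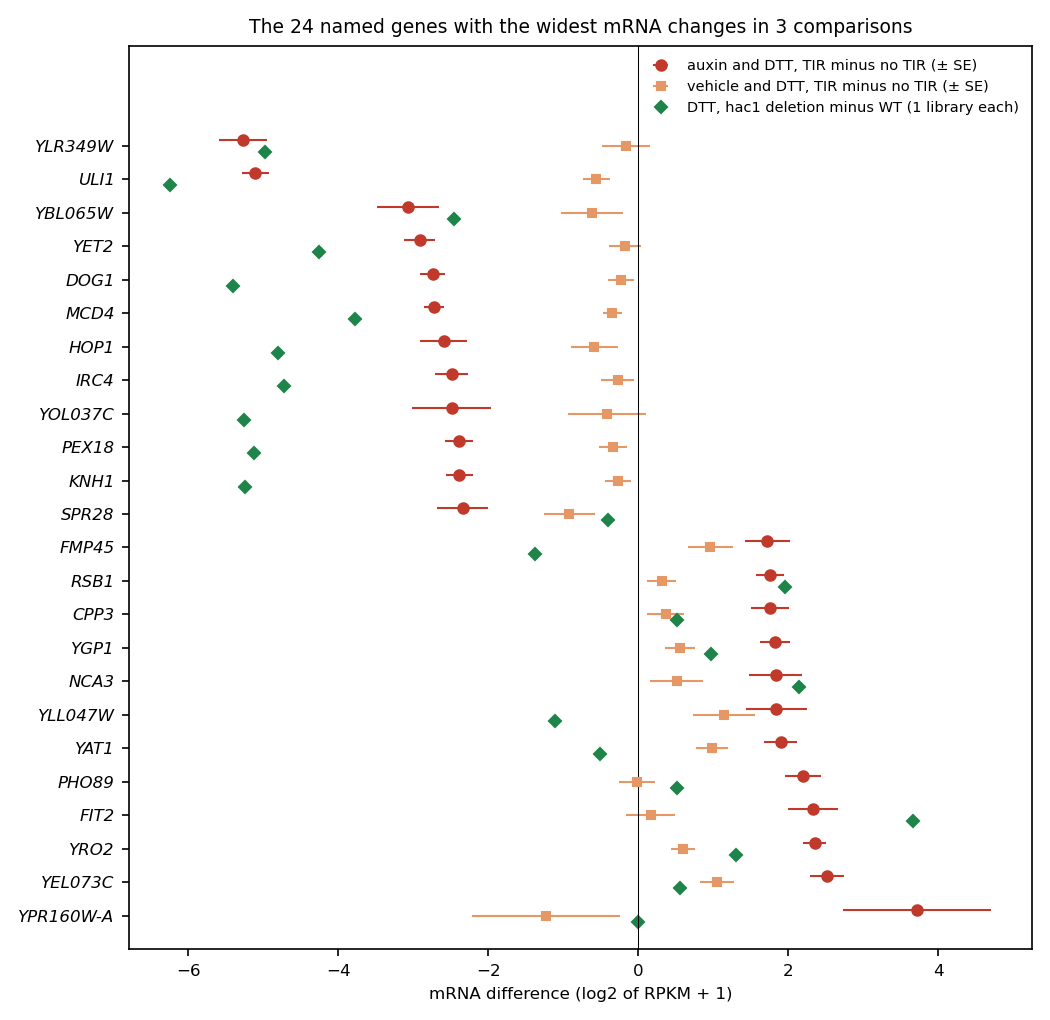
mRNA difference (x axis, log2 of RPKM + 1) of the 12 lowest and 12 highest called genes, for TIR minus no TIR with auxin and DTT (± SE), TIR minus no TIR with vehicle and DTT (± SE), and hac1 deletion minus WT with DTT (1 library each). The vehicle values lie near 0 for most lower genes, FMP45, NCA3, YOL037C, YLL047W and YPR160W-A lost their call with 1 library left out, and FMP45 and YAT1 are higher with auxin but lower in the deletion.

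Some iron uptake genes were higher in depleted cells. Of 23 iron regulon genes 8 were called higher in mRNA and of 21 tested in footprints 9 were higher and 1, FTH1, lower, where 2.33% and 3.82% of all genes were called higher. ENB1 (YOL158C), a siderophore transporter, had 799 and 589.9 RPKM of mRNA in depleted and 226 and 233 RPKM in retained cells (1.58 ± 0.16, limma adjusted p = 0.000174). FIT2 (YOR382W), a cell wall protein that holds siderophore iron, had 40.2 and 107 RPKM in depleted and 5.76 and 25.2 RPKM in retained cells (2.32 ± 0.33, adjusted p = 0.00147), and its value in both groups was higher at 2 h than at 1 h. The siderophore transporters SIT1 and ARN2 changed by 0.95 and 0.61, the ferric reductase FRE1 by 1.05, the iron oxidase FET3 by 1.22, FIT3, the neighbour of FIT2, by 0.82, and the iron-sulfur scaffold ISU1 by 0.58. These genes also leaned higher in TIR cells with vehicle and DTT, where the list had a median of 0.13 in mRNA and 0.27 in footprints and ENB1 was at 0.63 (adjusted p = 1). The difference with auxin was not called apart from that with vehicle for any gene of the list, among 53 genes called so in mRNA and 96 in footprints. Of the 8 mRNA calls 4 passed without the depleted library of 1 h and 4 without the retained library of 1 h, and 3, ENB1, FIT2 and FRE1, passed whichever library was left out. Without the retained library of 1 h SIT1, FIT3, ISU1 and ARN2 did not pass (adjusted p = 0.0507 to 0.304). FET3 had an adjusted p of 0.0655 without the depleted library of 1 h. Footprints of FTH1 did not pass without any 1 of the 4 libraries (adjusted p = 0.128 to 0.337), and 2 of the 9 increases passed without the retained library of 1 h. In the model without the hour 2 mRNA calls and 1 footprint call passed.

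Some phosphate genes were higher too. Of 16 genes of the phosphate response 7 were called higher in mRNA and of 15 tested in footprints 8 were higher, with medians of 0.65 and 0.80. PHO89 (YBR296C), a sodium-coupled phosphate transporter, had 339.9 and 512 RPKM of mRNA in depleted and 66.0 and 124 RPKM in retained cells (2.19 ± 0.24, limma adjusted p = 0.000287). PHO84 (YML123C), the high-affinity phosphate transporter, had 1162 and 1126 RPKM in depleted and 459 and 478 RPKM in retained cells (1.29 ± 0.14, adjusted p = 0.000208). SPL2, a regulator of low-affinity phosphate uptake, changed by 1.22, the kinase inhibitor PHO81 by 0.73, and the acid phosphatase PHO5 by 1.19. PHO5 shares sequence with close relatives, so its reads may be split among them. With vehicle and DTT the list had medians of −0.07 in mRNA and −0.14 in footprints, and PHO89 was at −0.02. Without DTT, PHO89 stood at 9.70 and 7.79 RPKM in TIR and 5.58 RPKM in no-TIR cells with auxin, so depleted cells under DTT lay further above that level than retained cells did. Of the 7 mRNA calls 3 passed without the retained library of 1 h, and 4 in the model without the hour. PHO5 and PHO81 were among those lost without the retained library of 1 h (adjusted p = 0.183 and 0.0964). Of the 8 footprint calls 2 passed without the retained library of 1 h, 3 without that of 2 h and 4 without either depleted library. PHO89 footprints (2.20, adjusted p = 0.0144) did not pass without any 1 of the 4 libraries (adjusted p = 0.0693 to 0.124).

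Transporters of the Pdr1 drug response were higher in part. Of 13 such genes 4 were called higher in mRNA and of 12 tested in footprints 4 were higher and 1, YOR1, lower, with medians of 0.42 and 0.36. RSB1 (YOR049C), which exports sphingoid long-chain bases, had 183 and 149.9 RPKM of mRNA in depleted and 39.5 and 59.5 RPKM in retained cells (1.75 ± 0.19, limma adjusted p = 0.000275). PDR5 (YOR153W), a multidrug transporter, had 1476 and 1388 RPKM in depleted and 613 and 766 RPKM in retained cells (1.06 ± 0.15, adjusted p = 0.00147). SNQ2, another multidrug transporter, and TPO1, a polyamine exporter, changed by 1.03 and 0.73, and neither passed without the depleted library of 1 h (adjusted p = 0.128 and 0.235) or the retained library of 1 h (adjusted p = 0.104 and 0.282). Footprints of YOR1 did not pass without any 1 of the 4 libraries (adjusted p = 0.053 to 0.244).

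Among single genes, YRO2 (YBR054W), a plasma membrane protein, had 345 and 209 RPKM of mRNA in depleted and 70.6 and 38.0 RPKM in retained cells (2.35 ± 0.15, limma adjusted p = 5.03e-06). YEL073C, of unknown function, had 111 and 131 RPKM in depleted and 24.3 and 16.9 RPKM in retained cells (2.52 ± 0.23, adjusted p = 6.94e-05). For this gene the TIR libraries with vehicle were also the higher ones, at 68.5 and 45.4 RPKM against 26.0 and 26.7 RPKM in no-TIR cells with vehicle. YAT1 (YAR035W), a carnitine acetyltransferase, had 39.8 and 39.5 RPKM in depleted and 9.27 and 10.6 RPKM in retained cells (1.90 ± 0.21), and 17.4 and 27.2 RPKM in TIR against 10.8 and 10.4 RPKM in no-TIR cells with vehicle. The secreted glycoprotein YGP1 changed by 1.82 and the mitochondrial import protein MIM2 by 1.48. Of 20 general stress genes 3 were called higher in mRNA, YGP1, SPI1 and HSP104, and of 19 genes of the cell wall integrity response 3, CWP1, PST1 and SPI1, which both lists share. HSP104, CWP1 and PST1 did not pass without the depleted library of 1 h (adjusted p = 0.353, 0.188 and 0.21) or the retained library of 1 h (adjusted p = 0.317, 0.13 and 0.374), and PST1 also not without the depleted library of 2 h (adjusted p = 0.146). The widest fitted increase, in YPR160W-A (3.71 ± 0.99, adjusted p = 0.0498), rests on a value of 0 in 1 retained library, at 81.9 and 88.7 RPKM in depleted and 0 and 42.3 RPKM in retained cells, and without that library the change was 1.25 (adjusted p = 0.254).

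Mitochondrial and amino acid genes had small positive medians and few calls. Of 26 electron transport genes and 14 ATP synthase genes 0 were called in mRNA by limma, with 5 and 4 at an unadjusted p under 0.05 and 2 of each called without the depleted library of 2 h, and 2 and 4 were called higher in footprints, with footprint medians of 0.27 and 0.34. At an unadjusted p under 0.05, 11 of the 26 and 11 of the 14 were higher in footprints, and in a fit of the 4 libraries alone 8 and 10 were called. Electron transport and ATP synthase genes also leaned higher in TIR cells with vehicle and DTT, with footprint medians of 0.08 and 0.15. Their mRNA medians there were 0.09 and 0.13, beside 0.12 and 0.25 with auxin. All 4 ATP synthase calls were at or under 0.43, and 0 passed without the depleted library of 1 h or without either retained library. The citrate synthase CIT1 (YNR001C) was higher, at 1498 and 1785 RPKM of mRNA in depleted and 728 and 958 RPKM in retained cells (0.97 ± 0.16, adjusted p = 0.0033). Of 31 amino acid synthesis genes controlled by Gcn4, 2 were called higher in mRNA, ARG3 (1.31) and LYS1 (0.76), the second of which did not pass without the depleted or the retained library of 1 h (adjusted p = 0.102 and 0.13). In footprints 6 of the 31 were called higher and 1, LEU1, lower, with 0 of these passing without the retained library of 1 h and 1 without that of 2 h or the depleted library of 1 h. Of 20 genes of sulfate assimilation 2 were called higher in mRNA, MET6, the methionine synthase (1.11), and MET2, a homoserine acetyltransferase (0.49), and 4 in footprints, MET2, MET6, MET14 and MET28, while MET17 was lower in footprints and SUL1 in both molecules. Neither mRNA increase passed without the depleted library of 1 h (adjusted p = 0.357 and 0.175), and of the 4 footprint increases MET2 passed whichever library was left out. SUL1, a sulfate permease, was called lower in mRNA (−1.43) and footprints (−2.41, adjusted p = 0.00492), and did not pass in mRNA without the depleted library of 1 h (adjusted p = 0.0958) or in either molecule without the retained library of 1 h (adjusted p = 0.0626 and 0.0657). Of 19 cytosolic chaperone genes 0 were called in mRNA by limma, with a median of 0.13 and 7 higher at an unadjusted p under 0.05. Some mRNA calls appeared without the depleted library of 2 h. In footprints 1 of the 19 was called higher, with a median of 0.21. At an unadjusted p under 0.05, 8 were higher and 1 lower there.

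**Figure D4:**
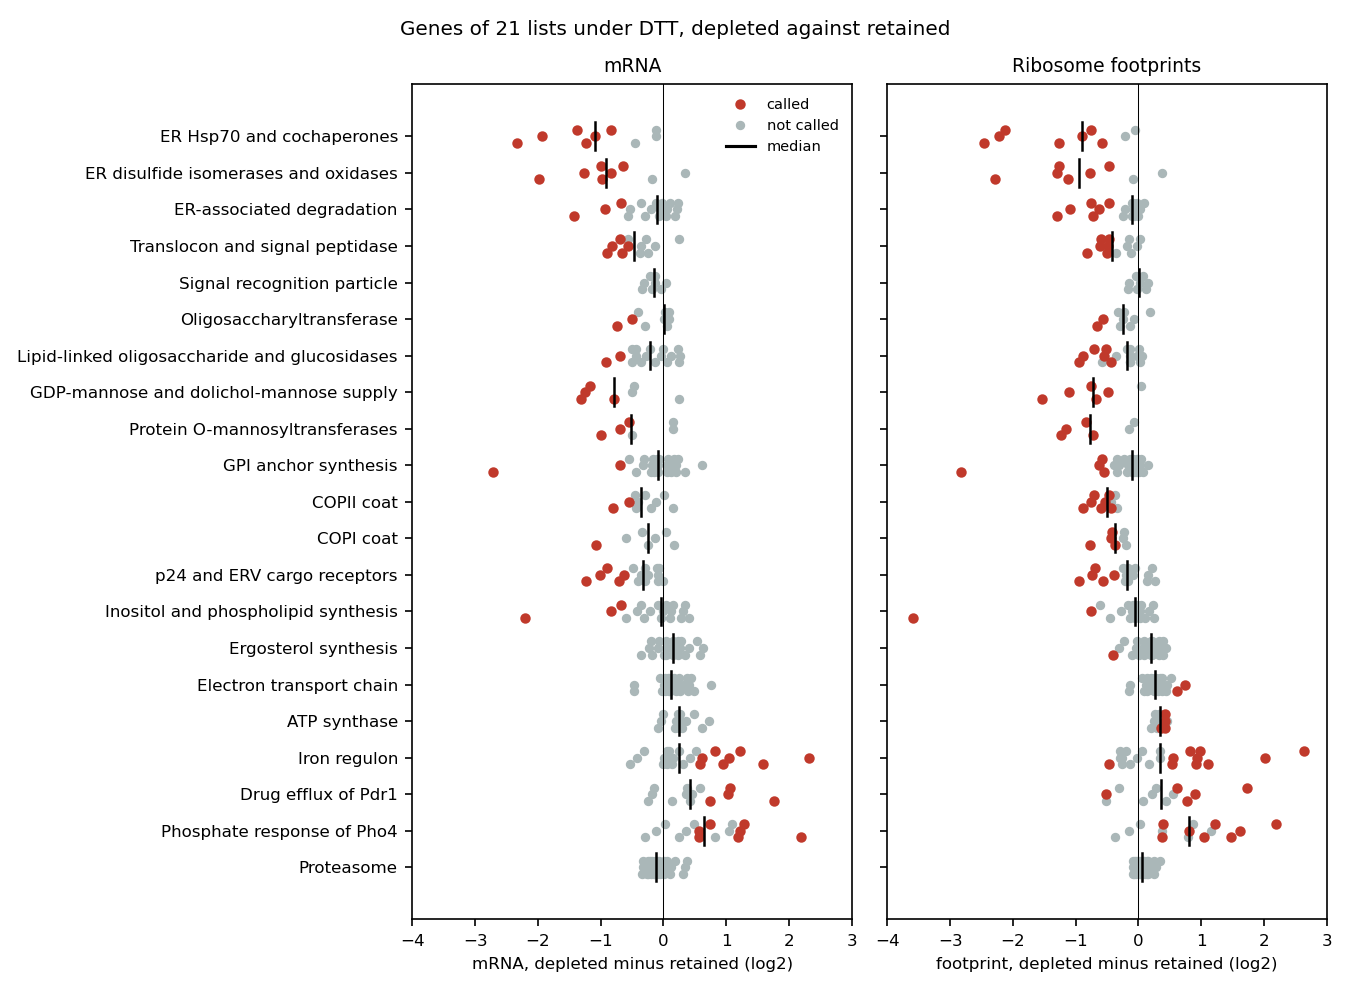
Change (x axis, log2, depleted minus retained under DTT) of each tested member of 21 gene lists, in mRNA on the left and in footprints on the right, with called genes in red, others in grey and a black bar at the list's median. Calls lie to the left of 0 in the lists of ER folding, glycosylation and transport and mostly to the right of 0 in the iron, drug efflux and phosphate lists.

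The level without DTT was set beside the depleted libraries. Of the 216 mRNA-lower genes, both depleted libraries under DTT lay above both libraries of TIR cells with auxin alone in 129 (59.7%), below both in 40 (18.5%), and overlapped with them in 47 (21.8%). Over all 5757 genes these shares were 53.2%, 25.1% and 21.7%, so the share above was near that of all genes. KAR2 mRNA at 4051 and 3595 RPKM in depleted cells under DTT stood against 939 and 985 RPKM in TIR cells given auxin but no DTT, and SIL1 at 303 and 279 RPKM against 159 and 134 RPKM. MCD4 was at 216 and 156 RPKM against 89.2 and 72.8 RPKM. In SEC53 the depleted libraries under DTT lay below those without DTT, at 2956 and 2971 RPKM against 4499 and 4554 RPKM. These values are given as levels with no test.

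The TIR strain without auxin gave the background of the comparison. With vehicle and DTT, limma called 0 of 5757 genes in mRNA (0%) between TIR and no-TIR cells and 0 of 5338 in footprints (0%), with 65 and 245 genes at an unadjusted p under 0.05 and smallest adjusted p of 0.119 and 0.994. In mRNA 1 gene was called without the no-TIR vehicle library of 2 h and 22 in a fit of these 4 libraries alone, and in footprints 4 in such a fit and 1 with no filter on low values. The genes called with auxin nevertheless leaned the same way with vehicle, in libraries that the 2 comparisons do not share. Of the 216 mRNA-lower genes 193 (89.4%) were below 0 with vehicle, against 53.2% of all genes, and of the 134 higher genes 107 (79.9%) were above 0, against 46.7%. The lean was small, with medians of −0.13 and 0.15 in those 2 sets and −0.01 over all genes. In footprints 226 of 309 (73.1%) and 162 of 204 (79.4%) leaned the same way, against 36.1% and 63.9% of all genes. Without DTT, TIR and no-TIR cells with auxin differed in 0 of 5757 genes in mRNA by limma (0%), with 136 at an unadjusted p under 0.05, in 4 of 5338 in footprints, all higher (0.0749%), and in 11 of 5329 in TE (0.206%), 6 higher (0.113%) and 5 lower (0.0938%), where the no-TIR group had 1 library of each molecule.

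The difference between the differences was tested directly. Of 5757 genes 53 were called in mRNA (0.921%), 43 (0.747%) with a more negative and 10 (0.174%) with a more positive value with auxin than with vehicle, and of 5338 genes 96 in footprints (1.8%), 79 (1.48%) and 17 (0.318%). KAR2 differed by −1.84 ± 0.17 (limma adjusted p = 0.000411), SIL1 by −2.03, ERO1 by −1.82, JEM1 by −1.18 and MCD4 by −2.38 ± 0.19 (adjusted p = 0.000129). Among genes higher in depleted cells, PHO89 (2.21), YRO2 (1.76), SPL2 (1.58), RSB1 (1.44) and PHO84 (1.36) passed. ENB1 (0.95, adjusted p = 0.102), YEL073C (1.46, adjusted p = 0.0758) and PDR5 (0.92, adjusted p = 0.0866) did not in mRNA. Of the genes that passed, JEM1 did not without 4 of the 8 libraries (adjusted p up to 0.0999, without the no-TIR vehicle library of 2 h), PHO89 not without 3, either depleted library or the TIR vehicle library of 1 h (adjusted p = 0.0562 to 0.0634), and PHO84 not without the TIR vehicle library of 1 h (adjusted p = 0.052). RSB1 passed with 1 of the 8 libraries left out, the retained one of 2 h, and with no other (adjusted p = 0.0601 to 0.178). The mRNA count was 22 and 24 without the TIR and no-TIR vehicle libraries of 1 h, 30 and 29 without the depleted and retained libraries of 1 h, 30 without the no-TIR vehicle library of 2 h, 31 without the depleted library of 2 h and 18 without the hour. The footprint count was 17 and 20 without the TIR vehicle libraries of 1 h and 2 h, 25 and 43 without the no-TIR vehicle libraries of 1 h and 2 h, 36 and 22 without the depleted libraries of 1 h and 2 h, 20 and 27 without the retained libraries of 1 h and 2 h, 27 without the hour and 247 in a fit of the 8 DTT libraries alone.

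Translational efficiency (TE), the log2 difference of footprints and mRNA in matching libraries, separated few genes. Of 5329 genes 19 were called (0.357%), 12 higher (0.225%) and 7 lower (0.131%) in depleted cells. The count was 12 and 11 without the depleted and the retained library pair of 1 h, 219 without the retained pair of 2 h and 36 in a fit of the 4 pairs alone, and 9 of the 19 genes were called whichever pair was left out, among them HNT1, IRC4, DMA2, HEM15, CRN1, ADH4, MLO1 and ULI1. With vehicle, 0 of 5329 were called by limma (0%), with 88 at an unadjusted p under 0.05. TE here is a ratio of read densities, and a footprint count does not show how fast a protein is made.

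Of the 12 genes higher in TE 7 were called lower in mRNA, HNT1, IRC4, DMA2, HEM15, ASA1, COX20 and ADD37, where 3.75% of all genes were. The mRNA value is subtracted in TE, so lower mRNA at unchanged footprints raises TE by construction. HNT1 (YDL125C), a nucleotide hydrolase and one of the genes the study examined singly, had 870.5 and 960.1 RPKM of mRNA in depleted and 1933 and 1246 RPKM in retained cells (−0.76 ± 0.19, limma adjusted p = 0.034). HNT1 footprints went the other way, at 2042 and 2148 RPKM in depleted and 1122 and 1073 RPKM in retained cells (0.93 ± 0.11, adjusted p = 0.00215), and TE was higher by 1.70 ± 0.18 (adjusted p = 3.7e-05). Its mRNA call did not pass without the depleted or the retained library of 1 h (adjusted p = 0.399 and 0.368), while its footprint and TE calls passed whichever library was left out. HNT1 lies beside YDL124W, a reductase gene that was lower in both molecules (−2.0 and −2.32), and it is not known here whether reads were assigned by strand.

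IRC4 (YDR540C), of unknown function, had 237 and 317 RPKM of mRNA in depleted and 1851 and 1292 RPKM in retained cells (−2.49 ± 0.22, limma adjusted p = 4.46e-05). Its footprints were 125 and 139 RPKM in depleted and 67.3 and 122 RPKM in retained cells, a difference that did not pass (0.54, adjusted p = 0.222), and TE was higher by 3.03 ± 0.26 (adjusted p = 4e-06). DMA2 (YNL116W), a ubiquitin ligase of spindle position control, had 111 and 92.4 RPKM of mRNA in depleted against 324 and 323 RPKM in retained cells, and nearly equal footprints, of 136 and 138 RPKM in depleted and 144 and 142 RPKM in retained cells (−0.06, adjusted p = 0.72). Its mRNA change was −1.67 ± 0.13 (adjusted p = 2.03e-05) and its TE change 1.60 ± 0.14 (adjusted p = 4e-06). HEM15 (YOR176W), the ferrochelatase of heme synthesis, had 581 and 475 RPKM of mRNA in depleted and 2477 and 1669 RPKM in retained cells, with footprints of 286 and 254 RPKM in depleted and 383 and 344 RPKM in retained cells. HEM15 mRNA changed by −1.95 ± 0.17, its footprints by −0.43 ± 0.10 (adjusted p = 0.0391, and 0.12 to 0.321 with 1 library left out) and its TE by 1.52 ± 0.14. For IRC4, HEM15, DMA2 and HNT1 the TE difference with auxin also exceeded that with vehicle, by 2.67, 1.35, 1.34 and 1.34. Their limma adjusted p were 0.00383, 0.00576, 0.00576 and 0.0499. Over all genes 7 were called in that test (0.131%), 5 higher (0.0938%) and 2 lower (0.0375%). That test was not repeated under other settings or with libraries left out. HNT1 was called apart from vehicle in neither mRNA nor footprints, while IRC4, HEM15 and DMA2 were in mRNA.

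In other genes the footprints changed at an mRNA level that did not pass the test. CRN1 (YLR429W), the actin-binding protein coronin, had 827 and 954 RPKM of mRNA in depleted and 877 and 855 RPKM in retained cells (0.04, limma adjusted p = 0.882). CRN1 footprints were 493 and 474 RPKM in depleted and 199 and 176 RPKM in retained cells (1.37 ± 0.13, adjusted p = 0.000795), and its TE change was 1.33 ± 0.15. ADH4 (YGL256W), an alcohol dehydrogenase, went down in footprints instead, at 31.8 and 17.1 RPKM in depleted and 103 and 74.2 RPKM in retained cells (−1.86 ± 0.20, adjusted p = 0.0015), with mRNA of 168 and 122 RPKM in depleted and 232 and 138 RPKM in retained cells (−0.32, adjusted p = 0.239). MLO1 (YMR252C) did likewise in footprints, at 21.8 and 22.4 RPKM in depleted and 48.2 and 65.9 RPKM in retained cells (−1.31 ± 0.14). Its mRNA change was 0.04. Footprints of CRN1 and MLO1 were not among the 96 genes whose difference with auxin was called apart from that with vehicle. ADH4 was among them, a call not kept with any 1 library left out (−1.78 to −1.33). In ULI1 both molecules were lower and footprints more so, at 13.7 and 11.6 RPKM in depleted and 1938 and 2515 RPKM in retained cells (−7.35 ± 0.18, and −2.24 ± 0.13 in TE, adjusted p = 2.03e-08). INO1 changed in TE by −1.38 (adjusted p = 0.00187), a call lost without the depleted pair of 1 h (adjusted p = 0.115). The other increases in TE ranged from 0.70 in ADD37 to 2.16 in YOL038C-A, with ASA1, BIO3, COX20, CRC1 and CRS5 between them (mRNA −0.96 and −0.76 and footprints 0.10 and 0.18 in ASA1 and COX20, the second pair not called), and the other decreases were MEP3 (−1.14), RPR2 (−0.98) and JEM1. Of these YOL038C-A passed whichever pair was left out, and without the retained pair of 1 h the others had an adjusted p of 0.0584 to 0.838. ODC2 (YOR222W), a mitochondrial carrier that the study also examined, did not pass in any measure, with 834 and 972 RPKM of mRNA in depleted and 1061 and 872 RPKM in retained cells and a TE change of 0.27 (adjusted p = 0.456).

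**Figure D5:**
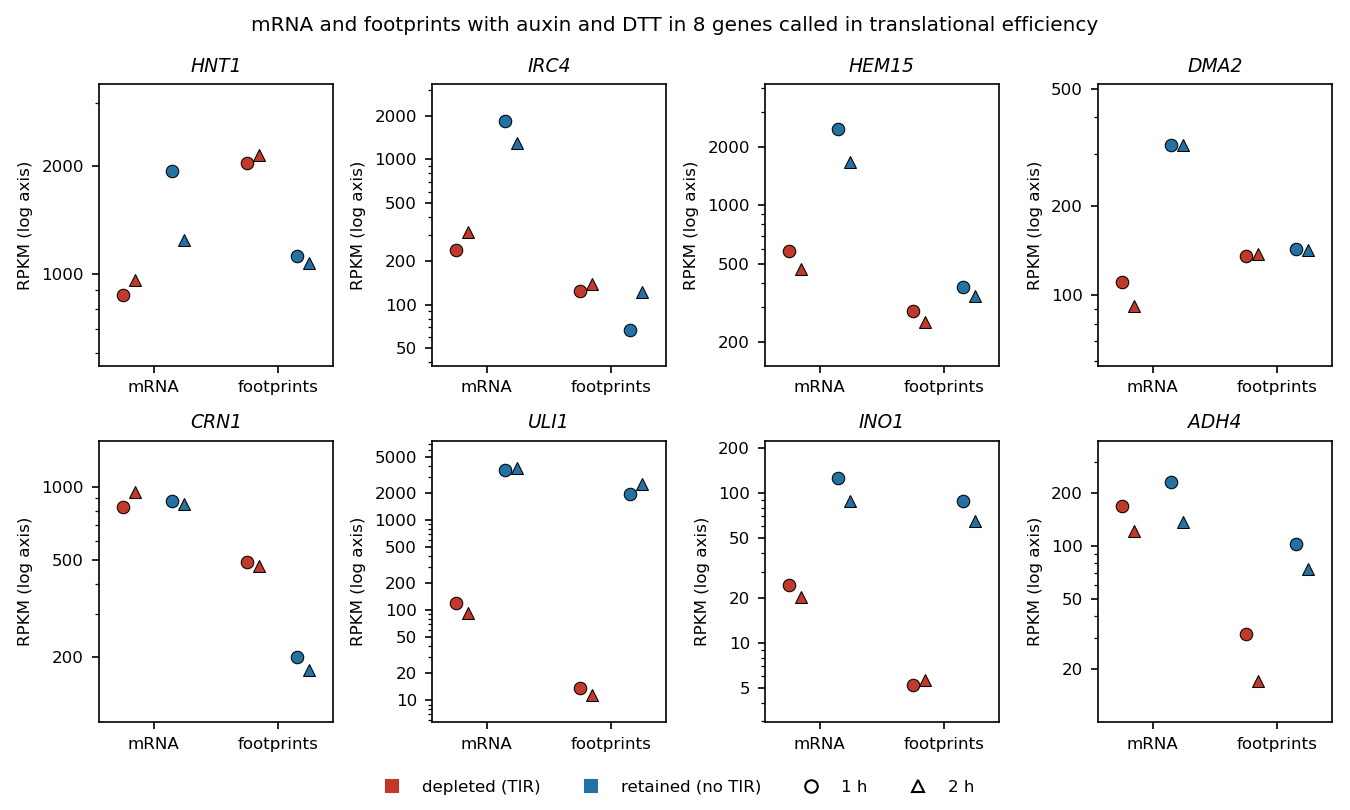
mRNA and footprint levels (RPKM, log axis) with auxin and DTT of 8 genes called in TE, with circles for 1 h and triangles for 2 h, depleted cells in red and retained cells in blue. In HNT1 the depleted libraries are the lower ones in mRNA and the higher ones in footprints, in DMA2 the 4 footprint values nearly coincide, and in CRN1 the 4 mRNA values do.

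The hac1 deletion gave a second comparison of cells without and with Hac1 under DTT, in libraries not shared with the depletion. It has 1 library a strain, so its differences have no test and were read as past 2-fold or not. In mRNA 422 of 5693 genes were past 2-fold lower in the deletion under DTT (7.41%) and 167 past 2-fold higher (2.93%). Of the 216 genes lower in depleted cells 215 were measured there, and 138 of these were past 2-fold lower in the deletion (64.2%, or 32.7% of the 422) and 1 past 2-fold higher. Of the genes higher in depleted cells 30 of 128 were past 2-fold higher in the deletion (23.4%, or 18.0% of the 167) and 13 past 2-fold lower. With Tm, 134 of 215 (62.3%) were past 2-fold lower, where 9.42% of all genes were, and of the 128 higher genes 26 were past 2-fold higher, where 6.08% were, and 22 past 2-fold lower. In footprints under DTT 153 of 306 (50%) were past 2-fold lower, where 8.63% of all genes were, and of 190 higher genes 34 (17.9%) were past 2-fold higher, where 3.33% were, and 24 past 2-fold lower. With Tm these were 147 of 306 (48.0%) past 2-fold lower, where 9.26% of all genes were, and 36 of 190 (18.9%) past 2-fold higher, where 8.84% were, beside 39 past 2-fold lower.

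The single genes differed in how the 2 experiments compared. KAR2 mRNA was at −3.42 in the deletion under DTT, with 1277 RPKM in the deletion and 13673 RPKM in WT, beside −1.93 in the depletion. ERO1 was at −3.34, SIL1 at −3.36, MCD4 at −3.77 and DOG1 at −5.40, each further from 0 than in the depletion. ULI1 was at −6.24 in mRNA and −9.91 in footprints of the deletion. HNT1 mRNA was at −0.98 and its footprints at 0.89, and CRN1 at −0.50 and 0.67, so both genes had mRNA and footprints of opposite sign there, as HNT1 but not CRN1 had in the depletion. DMA2 went otherwise, at 0.10 in mRNA (80.0 RPKM in the deletion and 74.6 RPKM in WT) beside −1.67 in the depletion. Of the genes higher in depleted cells, FIT2 (3.67), ENB1 (2.08) and RSB1 (1.95) were past 2-fold higher in the deletion, PHO89 (0.52) and PHO84 (−0.50) were not, and SPL2 (−2.44) and CWP1 (−3.99) were past 2-fold lower.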

How the data were processed

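Ribosome footprints and mRNA were sequenced from the cells described above. Per the submitters' processing notes the tools included CASAVA, bcl2fastq 2.17 and Bowtie2. The sources used here name no genome build, annotation, counting rule or use of strand. The authors deposited 1 table per experiment, with 6679 gene IDs each. The deletion table is in RPKM per the file headers, and the auxin table names no unit and was taken as RPKM from its values, in which 83.4% to 88.5% of low values in the libraries were whole multiples of a 1-read step to within 0.02. Reads in genes were estimated from those steps. They exceeded the library totals that the steps imply under RPKM, at 10.82 against 3.379 M in the retained mRNA library of 2 h. Without deposited counts, no count test was used.

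RPKM + 1 was taken to log2, and genes that averaged 5 RPKM or more across the 11 libraries of the same molecule were fitted in limma 3.58.1 (R 4.3.3) with a variance trend, 6 groups and an additive hour term, which left 4 residual degrees of freedom. P-values were adjusted by Benjamini-Hochberg over all genes fitted. TE was fitted in the same way on the difference of the 2 log2 values. The labelled hour served as the block. Deviations from group means of same-hour libraries correlated at 0.25 to 0.61 in mRNA and 0.59 to 0.77 in footprints. Between the depleted and retained groups themselves the correlation was 0.26 in mRNA, near the low end, and 0.75 in footprints. Named genes were the 12 lowest and 12 highest called genes of each molecule with groups that do not overlap (10 and 10 for TE), the 6 and 6 most extreme of the interaction, the most changed of each of 34 gene lists, HAC1 and 2 genes the study examined. IRE1, EPS1, PMT4, PMT6 and other members printed without a call, FTH1, YOR1, ERG7, LEU1, ADE2, the MET genes and neighbouring genes were added with their values known. The gene lists and the comparison itself were chosen with earlier results of these data known. Names and neighbours came from RefSeq R64, which matched 5994 of the IDs. Promoter sequences were not used here. The scripts were tested on simulated data with known changes. Python 3.11.15, pandas 2.3.3 and matplotlib 3.10.9 drew the figures. Alternatives were a pseudocount of 5, no filter on low values, median-ratio scaling, no hour term, a fit of the compared libraries alone, and each library left out.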

Additional observations from a re-analysis of the deposited data

Results flagged for a closer look

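Each result here is a difference between TIR and no-TIR cells under DTT that was not the same with auxin as with vehicle, by the limma test of that difference itself (adjusted p under 0.05 over all genes). Values are log2, the difference with auxin minus the difference with vehicle.

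In mRNA the values furthest below 0 were −5.10 in YLR349W, −4.55 in ULI1, −2.74 in YET2, −2.63 in YOR008W-B, −2.51 in DOG1 and −2.38 in MCD4. Those furthest above 0 were 2.21 in PHO89, 1.76 in YRO2, 1.58 in SPL2, 1.44 in RSB1, 1.36 in PHO84 and 1.23 in ARG3. YOR008W-B, a reading frame of unknown function, was called in the interaction but had 27.3 and 14.8 RPKM in depleted and 27.4 and 28.2 RPKM in retained cells with auxin (−0.45, adjusted p = 0.403), beside 38.7 and 37.3 RPKM in TIR and 5.61 and 10.1 RPKM in no-TIR cells with vehicle. With each of the 8 libraries left out in turn, the calls of PHO84 were made in 7 of 8, of PHO89 in 5, of YOR008W-B and ARG3 in 3 and of RSB1 in 1, with adjusted p of up to 0.052, 0.0634, 0.0927, 0.102 and 0.178.

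In footprints the values furthest below 0 were −6.80 in ULI1, −4.54 in YLR349W, −3.48 in YET2, −3.33 in INO1, −2.74 in MCD4 and −2.43 in DOG1. Those furthest above 0 were 1.88 in YRO2, 1.63 in PHM6, a phosphate-regulated gene, 1.57 in RSB1, 1.51 in SPL2, 1.38 in SPI1, a cell wall protein, and 1.16 in PHO84. With each of the 8 libraries left out in turn, RSB1 was called in 6 of 8, YRO2 and PHM6 in 2, and SPL2, SPI1 and PHO84 in 1, with adjusted p of up to 0.0633, 0.122, 0.19, 0.167, 0.182 and 0.165. Of the 96 footprint calls 16 were made in every such set, 16 of them lower and 0 higher. What sets these genes apart was not tested.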

How the results depend on the processing

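Counts of called genes moved with single libraries, the hour term and the scope of the fit, and the cause was not tested. With 1 library left out, the count ranged from 125 to 332 in mRNA (350 with all), 126 to 227 in footprints (513) and 11 to 219 in TE (19). For the interaction it ranged from 22 to 64 in mRNA (53) and 17 to 43 in footprints (96), and for vehicle from 0 to 1 in mRNA. The replicate block was the labelled hour, and without it 153 genes were called in mRNA, 201 in footprints, 18 in the mRNA interaction and 27 in the footprint interaction. A fit of the compared libraries alone called 36 genes in TE, 22 in mRNA and 4 in footprints with vehicle, and 247 in the footprint interaction. With no filter on low values the mRNA interaction had 33 calls and the vehicle footprints 1. Median-ratio scaling gave 352 mRNA calls (207 lower, 145 higher) and 554 in footprints (305 and 249), and did not shift the median of all genes by over 0.1 on the log2 scale.

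Of the settings tried for single genes, 368 values lost a call, 3 gained one and 12 changed sign, and of list counts 224 moved and 1000 did not. The sign changes were all in genes with small differences. With 1 library left out, mRNA values ranged from −0.17 to 0.29 in CRS5, −0.25 to 0.064 in ODC2, −0.064 to 0.15 in MLO1 and −0.050 to 0.12 in CRN1, the footprint values from −0.043 to 0.25 in ASA1 and −0.043 to 0.40 in ODC2, and the TE values from −0.31 to 0.13 in HAC1 and −0.11 to 0.66 in ODC2. The sign turned without the 1 h library of either group in mRNA of CRS5 and ODC2, without that of 2 h in MLO1 and CRN1, without the depleted library of 1 h in footprints and TE of ODC2, and without the retained library of 1 h in ASA1 and HAC1. With 2 libraries a group and an estimated 10.82 to 36.55 M reads in genes, how small a difference could be called in low genes was not measured. The lone library left in a group is assumed to vary like the others.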
